A study of Mus musculus with 6 samples.

Results

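The BCL2 family decides at the mitochondrial outer membrane whether a cell lives or dies, and it was followed here in splenic T cell preparations of mice without miR-142. The family was taken as 10 genes. Its survival members were Bcl2, Bcl2l1 (BCL-XL), Mcl1 and Bcl2l2 (BCL-W), its effectors Bax and Bak1, and its BH3-only members Bid, Bcl2l11 (BIM), Bmf and Bbc3 (PUMA). All probe sets assigned to these genes by the platform annotation were used, whatever their level, which gave 33 of 45037 tested probe sets and covered 9 of the 10 genes. A probe set is a group of short probes on the array that reads 1 stretch of a transcript. Bax was not analysed here, so Bak1 stood alone for the effectors. Bcl2 had 5 probe sets, Bcl2l1 4, Mcl1 6, Bcl2l2 4, Bak1 2, Bid 3, Bcl2l11 5, Bmf 3 and Bbc3 1. Probe sets of a gene share its transcript and are not replicates.

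The study compared 3 miR-142 knockout (KO) mice with 3 wild-type (WT) littermates. All were male C57BL/6 animals of 10 weeks, untreated as far as the labels say, and each array held RNA of T cells that were purified from the spleen of 1 animal by negative selection. Negative selection removes other cells with antibodies and leaves cells that no antibody binds. The construction of the knockout allele was not given in the sources used here. It was therefore not known here in which cells the gene is lost. Values were log2 intensities after robust multi-array averaging (RMA), so a difference of 1 is a 2-fold change.

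Survival members bind and block the effectors and the BH3-only proteins. BH3-only proteins are the sensors that switch on after growth factor loss, DNA damage or death receptor signals, and they either occupy the survival members or activate BAX and BAK1 directly. Activated BAX and BAK1 open the outer membrane, cytochrome c escapes and caspases follow. In resting T cells, BCL2 is kept up by interleukin 7 signalling, MCL1 is a short-lived protein that is needed throughout lymphocyte life, and BIM is the main BH3-only protein that removes T cells after cytokine loss. Myeloid cells rely more on MCL1 and BCL2A1.

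The microRNA that the KO animals lack is a regulator of the blood lineages, and the mature sequences of both its arms are shown because the seed, in capitals (bases 2 to 8), is the part that pairs with target transcripts. They are RefSeq sequences on GRCm38.p6, plus strand of chromosome 11, at 87756903 to 87756925 for the 3p arm and 87756867 to 87756887 for the 5p arm.
mmu-miR-142a-3p: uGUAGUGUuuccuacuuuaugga
mmu-miR-142a-5p: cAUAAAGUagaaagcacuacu
The arrays do not measure the mature microRNA. The probe set listed as Mir142 read 7.93, 8.13 and 7.67 in WT replicates 1 to 3 and 5.97, 5.88 and 5.90 in KO replicates 1 to 3. All KO values lay below all WT values. Whether that probe set lies in the deleted part is not known here, so it checks the labels only if it does.

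The libraries differed in more than the microRNA. Across 9 T cell markers the mean log2 level lay between 12.15 and 12.17 on the WT arrays and between 9.29 and 10.71 on the KO arrays, and all 9 fell. Of 10 neutrophil markers 9 rose, with array means from 6.07 to 7.32 in WT and from 9.92 to 12.86 in KO. All 7 measured markers of eosinophils, basophils and mast cells rose, from array means of 6.29 to 6.38 up to 10.82 to 11.32. Erythroid markers rose for 4 of 5 genes, monocyte and macrophage markers for 4 of 5, megakaryocyte and platelet markers for 4 of 4, dendritic cell markers for 2 of 5 and B cell markers for 0 of 5 in limma, or 1 (Cd79b) at an unadjusted p below 0.05. Of 4 NK cell markers Gzma fell. Among defining genes, the myeloperoxidase gene Mpo stood at 13.92 ± 0.23 (SD, n = 3) in KO against 9.03 ± 0.08 in WT, while Cd3e, a chain of the T cell receptor complex, stood at 9.70 ± 0.82 against 11.36 ± 0.13. Spiked-in bacterial RNAs, the hybridization controls, averaged 10.21 ± 0.10 in WT and 9.85 ± 0.06 in KO. Signs of RNA quality also differed: the Actb control at the 3′ end exceeded that at the 5′ end by 0.16 to 0.23 in WT and 0.32 to 0.40 in KO, on the log2 scale, and the 18S controls read 9.47 to 9.66 in WT and 7.86 to 9.19 in KO. In such bulk RNA, fewer cells of a type and less RNA per cell cannot be told apart, and the part of these markers and controls in each difference below was not tested.

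Of the 33 probe sets of the family, 6 rose and 14 fell in KO, where rose and fell stand for an adjusted p below 0.05 in limma. That is 18.2% and 42.4% of them, against 13.9% of all tested probe sets that rose and 15.5% that fell. Members were brighter than most transcripts, with 24 of 33 at or above the median level. Among those 24, 20.8% rose and 54.2% fell, against 23.8% and 24.5% of all probe sets at or above it. The family's rises were thus about as frequent as elsewhere, and its falls came from 5 genes with up to 6 probe sets each. With arrays set to equal levels of the hybridization controls, 10 probe sets of the family rose and 4 fell, against 38.4% and 5.19% of all probe sets. That scaling moved the median difference of all probe sets from -0.08 to 0.29, and every difference by the same 0.37. All KO values lay above all WT values for 6 probe sets and below for 15, against 18.5% and 27.4% of all probe sets.

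**Figure D1:**
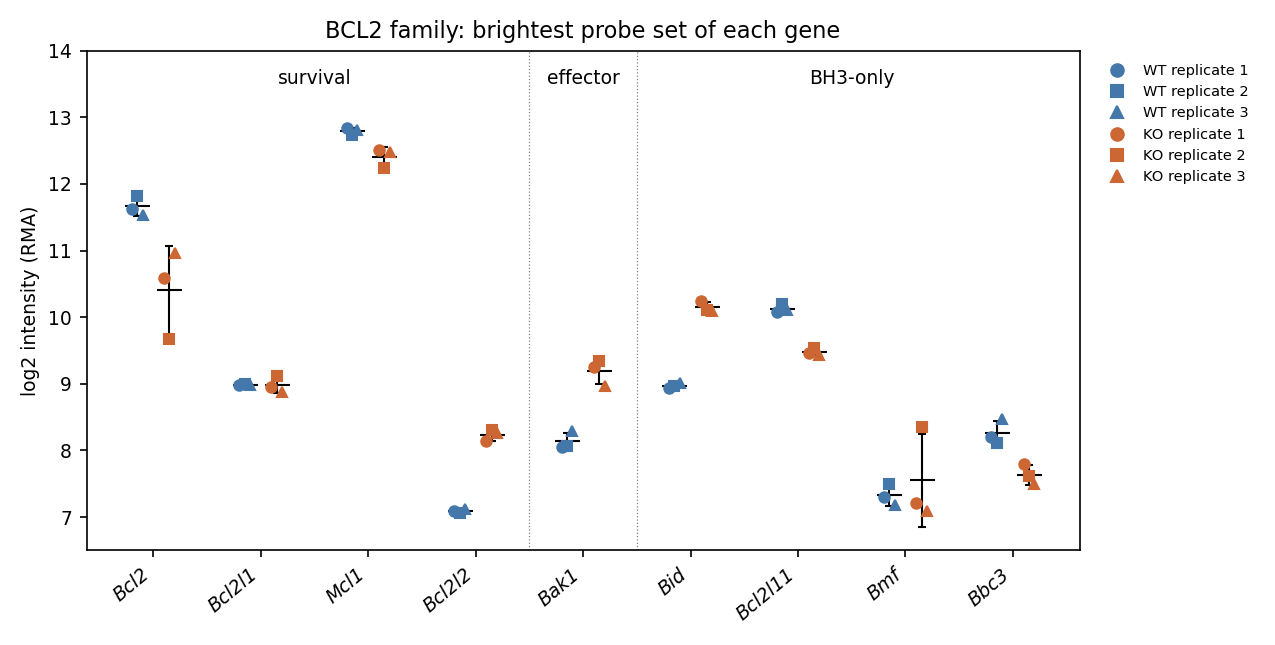
Log2 intensity (y axis, RMA) of the brightest probe set of each of the 9 measured genes, by array, for 3 WT and 3 KO mice. Horizontal ticks are group means and bars the SD. Bcl2l2, Bak1 and Bid lie higher on every KO array, and Bcl2, Mcl1, Bcl2l11 and Bbc3 lie lower, of which Mcl1, Bcl2l11 and Bbc3 lose their calls, with the sign kept, under scaling to the hybridization controls. Bmf is spread by KO replicate 2 at 8.36.

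By class, the survival genes gave 1 rise and 10 falls over 19 probe sets, with a median log2 difference of -0.52. Of these falls 6 were of Mcl1, 3 of Bcl2 and 1 of Bcl2l2. Both effector probe sets rose, with differences of 1.06 and 0.34. The BH3-only genes gave 3 rises and 4 falls over 12 probe sets, with a median of -0.08, against -0.08 over all probe sets. Taken at the brightest probe set of each gene, 3 of 9 genes rose and 4 fell, against 18.6% of all genes for each direction. The survival genes and the BH3-only genes each held 1 gene that rose, 2 that fell and 1 that was not called. At these probe sets both classes had a median difference of -0.20, against -0.06 over all genes. Under scaling to the hybridization controls the 4 survival genes gave 2 rises and 1 fall, with a median of 0.17, and of the 4 BH3-only genes Bid alone was called, with a median of 0.17. At that scaling 42.8% of all genes rose and 7.22% fell. Without WT replicate 1 or WT replicate 2 neither fall among the survival genes passed.

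Among the survival members, Bcl2 fell most. BCL2 is the founding member of the family and the survival factor of naive and memory T cells. Its brightest probe set, 1457687_at, read 11.62, 11.83 and 11.54 in WT replicates 1 to 3 and 10.59, 9.68 and 10.97 in KO replicates 1 to 3. The groups did not overlap, and KO replicate 2 was the lowest. The fall was 2.39-fold, a log2 difference of -1.25 ± 0.30 (SE, n = 3 per group; limma adjusted p = 0.018). The call was lost without WT replicate 1 (adjusted p = 0.058 in limma) or WT replicate 2 (0.068), with differences of -1.27 and -1.17. Scaled to the hybridization controls the fall was 0.89 with an adjusted p of 0.047 in limma.

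Bcl2 probe set 1437122_at gave 9.68, 9.90 and 9.65 in WT and 8.75, 7.46 and 8.78 in KO, and 1422938_at gave 8.63, 8.76 and 8.66 in WT and 7.80, 6.99 and 7.79 in KO. The first fell by 1.41 ± 0.34 and the second fell by 1.16 ± 0.21 (SE, n = 3 per group; limma adjusted p = 0.017 and 0.0059). The 1437122_at call was lost without WT replicate 1 or WT replicate 2 (limma adjusted p = 0.056 and 0.065), while the 1422938_at call held in all 15 alternatives run, among them each left-out array. KO replicate 2 was again the lowest array for both.

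The other pair of Bcl2 probe sets went with that single array. At 1440770_at the values were 8.38, 8.71 and 7.80 in WT and 8.28, 6.13 and 8.33 in KO, so that the groups overlapped. At 1443837_x_at they were 8.06, 8.43 and 7.61 in WT and 8.09, 6.32 and 8.14 in KO. Neither passed the threshold, with log2 differences of -0.72 and -0.52 (limma adjusted p = 0.399 and 0.470). Without KO replicate 2 these differences were 0.0040 and 0.080. Neither difference from the brightest probe set was resolved: the exact two-sided permutation test over the arrays gave p = 0.30 for 1440770_at and p = 0.10 for 1443837_x_at, and p = 0.10 is the smallest that 3 against 3 arrays allow.

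T cell markers were also lowest on KO replicate 2, with a mean of 9.29 against 10.51 and 10.71 in KO replicates 1 and 3. They fell by 1.99 on average on the log2 scale, against 1.25 for the brightest Bcl2 probe set. Without KO replicate 2 the median fall of the T cell markers was 1.33 in place of 1.85, and that of the brightest Bcl2 probe set 0.89.

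**Figure D2:**
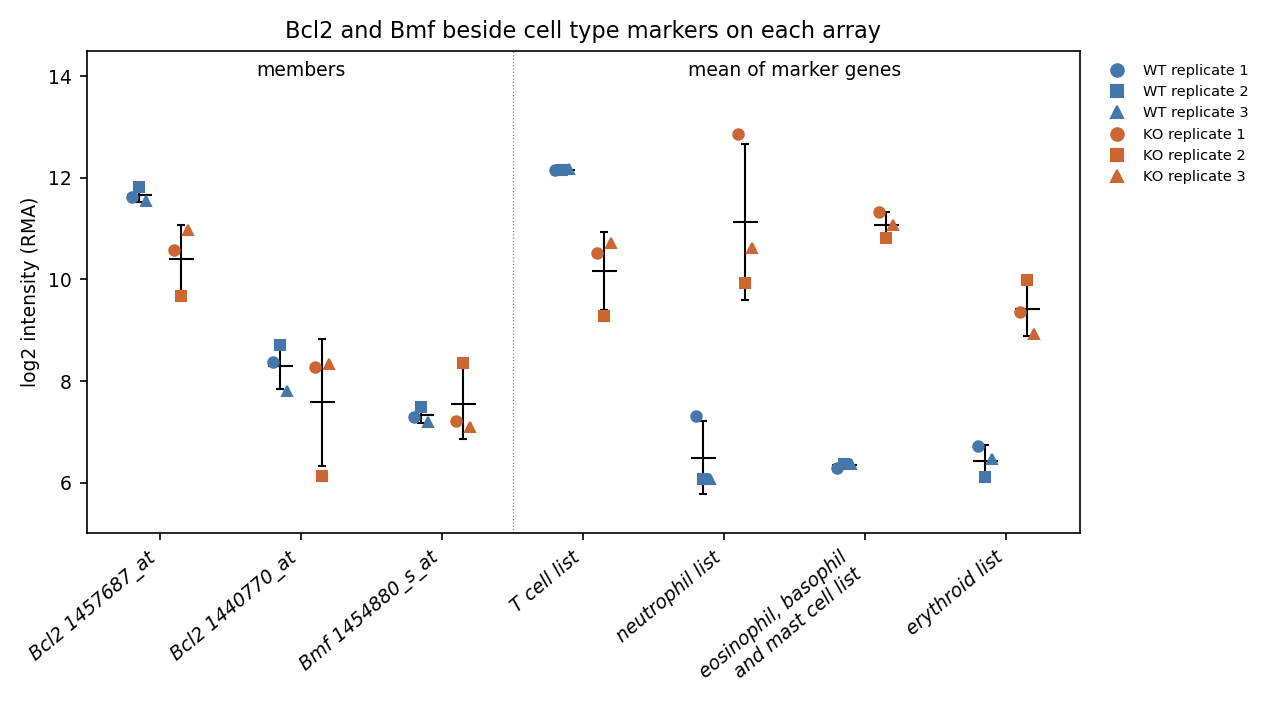
Log2 intensity (y axis, RMA) of 2 Bcl2 probe sets and the brightest Bmf probe set beside the array means of 4 marker lists, for 3 WT and 3 KO mice, with group means (ticks) and SD (bars). KO replicate 2 (orange squares) is lowest of the KO arrays for both Bcl2 probe sets and the T cell list, 9.29. It is also lowest for the neutrophil list, 9.92, and the eosinophil, basophil and mast cell list, 10.82. It is highest for Bmf and the erythroid list, 9.99.

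Mcl1 was the brightest member on these arrays, and all of its 6 probe sets fell. MCL1 turns over within hours and is needed by T cells, neutrophils and blood stem cells alike. The brightest probe set, 1448503_at, gave 12.84, 12.74 and 12.81 in WT and 12.51, 12.24 and 12.48 in KO. It fell 1.31-fold and dropped by 0.39 ± 0.10 (SE, n = 3 per group; limma adjusted p = 0.024). That call was lost without any WT replicate (limma adjusted p = 0.080, 0.057 and 0.064 for replicates 1 to 3).

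The other 5 Mcl1 probe sets fell by 0.67 to 0.76, between 1.60-fold and 1.69-fold, with limma adjusted p from 0.0039 to 0.0098. At 1437527_x_at, for example, the values were 12.25, 12.22 and 12.28 in WT and 11.71, 11.23 and 11.55 in KO. The groups of all 6 probe sets stood apart, and KO replicate 2 was the lowest array at each. Under scaling to the hybridization controls none of the 6 was called, with differences from -0.023 to -0.39 and limma adjusted p from 0.066 to 0.890. Its brightest probe set changed less than each of the other 5, by 0.29 to 0.37, with an exact two-sided permutation p of 0.10 each, again the smallest possible.

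Bcl2l1 encodes BCL-XL, which activated T cells, erythroid precursors and platelets depend on. Its brightest probe set, 1420888_at, read 8.98, 8.99 and 8.99 in WT and 8.95, 9.12 and 8.88 in KO. The difference was -0.0022 with an interval (95%, limma) from -0.22 to 0.21. The other 3 probe sets were dim, between 3.87 and 4.79, and differed by -0.33 to 0.041 (limma adjusted p from 0.135 to 0.798). Of these, 1426050_at fell by 0.46 when WT replicate 3 was left out (limma adjusted p = 0.042). Scaled to the hybridization controls, 1420888_at rose by 0.36 and 1420887_a_at by 0.41 (limma adjusted p = 0.029 and 0.040), close to the shift of 0.37 that the scaling gives every probe set.

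Bcl2l2 encodes BCL-W, a close relative of BCL2 best known from the testis and nervous system. It was the survival gene with a rise. Probe set 1423572_at gave 7.09, 7.07 and 7.12 in WT and 8.14, 8.30 and 8.26 in KO. The groups stood far apart with little spread, and the rise was 2.21-fold, 1.14 ± 0.08 (SE, n = 3 per group; limma adjusted p = 1.2e-04).

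As deposited, its other probe sets did not share the rise. The dim 1430454_x_at fell by 0.47 ± 0.10, from 5.46, 5.53 and 5.64 to 5.15, 5.12 and 4.94 (limma adjusted p = 0.0098, and 0.487 under scaling to the hybridization controls). Probe sets 1430453_a_at and 1451029_at differed by -0.078 and 0.13 (limma adjusted p = 0.743 and 0.506). Under scaling to the hybridization controls 1451029_at rose by 0.49 (limma adjusted p = 0.015), and 1430453_a_at differed by 0.29 and was not called (0.120). As deposited, the change at 1423572_at exceeded those of its other probe sets by 1.02 to 1.61, with p = 0.10 in each exact two-sided permutation test, the smallest possible. Averaged over its 4 probe sets, Bcl2l2 differed by 0.18 and was not called (limma adjusted p = 0.156).

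The measured effector, Bak1, rose at both of its probe sets. BAK1 sits in the outer mitochondrial membrane and forms pores once it is freed from MCL1 and BCL-XL. At 1418991_at the values were 8.06, 8.06 and 8.29 in WT and 9.26, 9.34 and 8.97 in KO. All KO arrays were higher, by 2.08-fold or 1.06 ± 0.13 (SE, n = 3 per group; limma adjusted p = 8.2e-04). The dim probe set 1425716_s_at, whose suffix marks probes shared with related transcripts, went from 4.43, 4.31 and 4.36 to 4.55, 4.71 and 4.85, a rise of 0.34 ± 0.10 (limma adjusted p = 0.045). The second call did not hold when any WT replicate, KO replicate 2 or KO replicate 3 was left out, or with the replicate number as a block (limma adjusted p from 0.080 to 0.138), while the first held in all alternatives run.

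**Figure D3:**
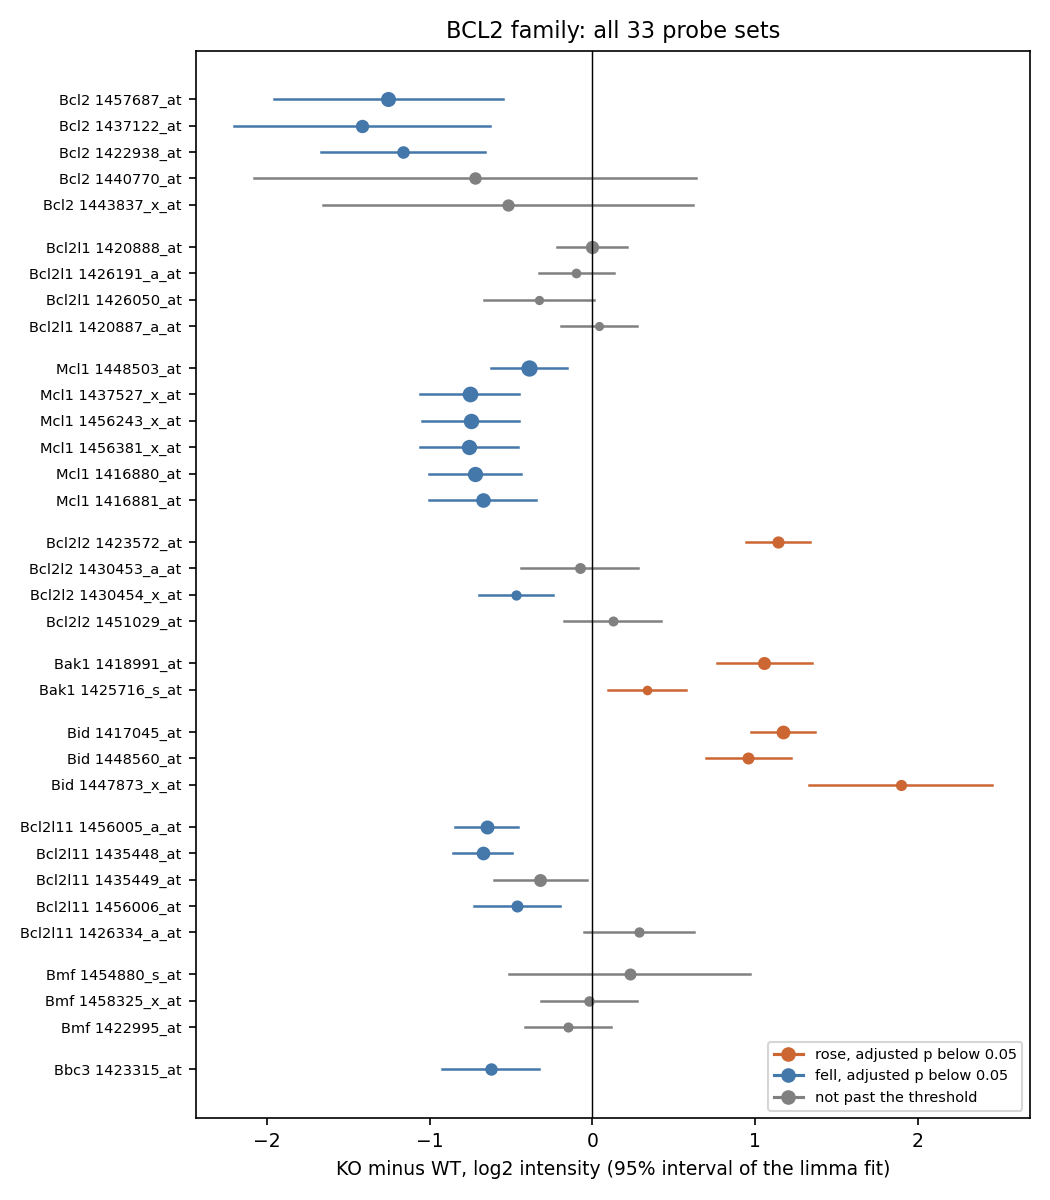
KO minus WT difference (x axis, log2) of all 33 probe sets with the 95% interval of the limma fit, grouped by gene and ordered by level, larger dots being brighter. All 3 Bid and both Bak1 probe sets lie above 0 and all 6 Mcl1 probe sets below it. Bcl2l1, Bcl2l2, Bcl2l11 and Bmf have probe sets on both sides. Under scaling to the hybridization controls each value moves up by 0.37, and no Mcl1 probe set is then called, although all 6 keep their sign.

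Among the BH3-only members, Bid rose at all 3 of its probe sets. BID is cut by caspase-8 after death receptor signals, and by granzyme B, and the fragment then activates BAX and BAK1. The brightest probe set, 1417045_at, gave 8.94, 8.97 and 9.01 in WT and 10.24, 10.11 and 10.09 in KO. The SD was 0.034 in WT and 0.083 in KO, and the rise was 2.25-fold, 1.17 ± 0.08 (SE, n = 3 per group; limma adjusted p = 1.0e-04).

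Probe set 1448560_at rose by 0.96 ± 0.11 and 1447873_x_at by 1.89 ± 0.24 (SE, n = 3 per group; limma adjusted p = 7.4e-04 and 0.0011). At 1447873_x_at, which was near the median level in WT, the values went from 5.52, 5.25 and 5.72 to 7.43, 7.84 and 6.89. All 3 calls held in every alternative run for them. The size at 1447873_x_at exceeded that of the brightest probe set by 0.72 (exact two-sided permutation p = 0.10, the smallest possible). Of all tested probe sets, 2228 had a larger KO minus WT difference than 1417045_at and 1070 a larger one than 1447873_x_at.

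Bcl2l11 encodes BIM, and it fell. BIM binds all survival members, and its loss lets T cells survive without cytokine. The brightest probe set, 1456005_a_at, gave 10.08, 10.19 and 10.12 in WT and 9.46, 9.54 and 9.44 in KO. All 3 KO arrays were close together and below WT. The level fell by 0.65 ± 0.08, or 1.57-fold (SE, n = 3 per group; limma adjusted p = 0.0011).

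Bcl2l11 probe set 1435448_at fell by 0.67 ± 0.08, from 9.75, 9.75 and 9.82 to 9.09, 9.12 and 9.10 (limma adjusted p = 7.0e-04), a call that held in all alternatives run. The dimmer 1456006_at fell by 0.46 ± 0.11 (limma adjusted p = 0.020), and it did not pass when WT replicate 2, WT replicate 3 or KO replicate 1 was left out (limma adjusted p = 0.070, 0.058 and 0.062). The groups of 1435449_at did not overlap either, and its difference was -0.32 (limma adjusted p = 0.091), which passed without KO replicate 2 (-0.43, adjusted p = 0.016) and with array weights (-0.39, 0.021). The dim 1426334_a_at differed by 0.29, with a positive sign (limma adjusted p = 0.186). Under scaling to the hybridization controls, 1435448_at still fell by 0.31 (limma adjusted p = 0.049), 1456005_a_at differed by -0.28 and was not called (0.080), and neither was 1456006_at, which differed by -0.095 (0.587). There 1435449_at turned to 0.047 (limma adjusted p = 0.779), and 1426334_a_at rose by 0.65 (0.0096). KO replicate 2, which had the lowest T cell markers, was the highest KO array for 1456005_a_at and 1435448_at and the lowest for the 3 called Bcl2 probe sets.

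Bbc3 encodes PUMA, a BH3-only protein induced by p53 and by FOXO factors. It had 1 probe set, 1423315_at, with 8.21, 8.11 and 8.47 in WT and 7.80, 7.62 and 7.50 in KO. The groups did not overlap, and the level fell by 0.63 ± 0.13, or 1.54-fold (SE, n = 3 per group; limma adjusted p = 0.0090). Scaled to the hybridization controls it differed by -0.26 and was not called (limma adjusted p = 0.141).

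Bmf encodes a BH3-only protein that is held at the cytoskeleton through dynein light chains. Its brightest probe set, 1454880_s_at, gave 7.30, 7.49 and 7.19 in WT and 7.22, 8.36 and 7.09 in KO. KO replicate 2 alone stood above WT, the other 2 KO arrays lay within or below the WT range, and the difference of 0.23 did not pass the test (limma adjusted p = 0.632). Without KO replicate 2 the difference was -0.17 (limma adjusted p = 0.348). On that array the erythroid markers were also the highest, 9.99 against 9.36 and 8.92 in KO replicates 1 and 3. The megakaryocyte and platelet markers were highest there as well, 8.37 against 8.14 and 8.03. Of the B cell markers Cd79a and Cd79b were highest on it among the KO arrays, and Ms4a1, Cr2 and Fcer2a lowest. Whether any of these cell types bears on the Bmf value was not tested. The dim probe sets 1458325_x_at and 1422995_at differed by -0.019 and -0.15 (limma adjusted p = 0.926 and 0.367).

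BIM and PUMA are known targets of FOXO factors, so the promoters of the family were searched for the FOXO core TGTTTAC on both strands, in the 250 bases before and 50 after each RefSeq start. All 10 genes had at least 1 RefSeq start, which gave 17 such windows to search. The core was in 2 of the 17, 1 of Bcl2l11 and 1 of Bbc3, against 3.65% of 32851 promoters of the same length. These windows are printed because they hold the core, which is in capitals. The Bcl2l11 window lies on the plus strand at chr2:128125788-128126087 and the Bbc3 window on the plus strand at chr7:16310011-16310310 (both GRCm38.p6).
Bcl2l11: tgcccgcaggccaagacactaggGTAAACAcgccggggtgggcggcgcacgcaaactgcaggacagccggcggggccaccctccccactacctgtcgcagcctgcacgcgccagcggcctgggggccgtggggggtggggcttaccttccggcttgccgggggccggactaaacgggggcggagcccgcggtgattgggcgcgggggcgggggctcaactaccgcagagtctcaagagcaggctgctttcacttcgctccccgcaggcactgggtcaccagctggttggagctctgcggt
Bbc3: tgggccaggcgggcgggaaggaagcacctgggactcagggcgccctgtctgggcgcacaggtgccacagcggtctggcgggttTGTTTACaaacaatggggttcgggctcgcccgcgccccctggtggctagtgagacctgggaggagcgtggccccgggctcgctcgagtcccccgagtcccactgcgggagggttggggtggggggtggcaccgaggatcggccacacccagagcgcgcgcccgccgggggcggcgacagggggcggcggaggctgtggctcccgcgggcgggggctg
In the Bcl2l11 window the core lies on the minus strand. The printed plus strand therefore reads GTAAACA, which begins 227 bases before the start. In the Bbc3 window it is read on the plus strand and begins 167 bases before the start. Windows at the other starts of these genes, 1 for Bcl2l11 and 2 for Bbc3, did not hold it. The E2F cores TTTCCCGC and TTTGGCGC and the STAT core TTCNNNGAA, searched on both strands, were in 0 of the 17 windows, against 1.07%, 0.514% and 8.30% of all promoters. A match is only a string of letters, and a window without it says nothing on whether the factor binds.

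Of the 19 measured regulators that act on the family 8 fell and 4 rose, against 18.6% of all genes in each direction, with a median difference of -0.11 against -0.06 over all genes at their brightest probe set. Il7r, the interleukin 7 receptor whose signal keeps BCL2 up in T cells, read 12.72, 12.80 and 12.73 in WT and 10.43, 10.42 and 10.53 in KO. It fell by 2.29 ± 0.08, or 4.88-fold (SE, n = 3 per group; limma adjusted p = 1.2e-05). The SD over the KO arrays was 0.061 for Il7r and 0.66 for the brightest Bcl2 probe set.

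Foxo1, a FOXO factor that drives Il7r in naive T cells, gave 11.05, 11.14 and 10.96 in WT and 9.39, 9.14 and 9.22 in KO, and fell by 1.80 ± 0.10 (SE, n = 3 per group; limma adjusted p = 4.3e-05). Of its other 3 probe sets 1 fell by 1.80 and 1 fell by 2.10, and the dim 1456529_at differed by -0.014. Foxo3, another FOXO factor, differed by 0.14 and was not called (limma adjusted p = 0.327), and it rose by 0.50 under scaling to the hybridization controls (0.010). Jak1, a kinase that carries the interleukin 7 signal, fell by 1.30 ± 0.18 (limma adjusted p = 0.0017). Pim2, a kinase that promotes survival and is induced by such cytokines, fell by 1.26 ± 0.20 (limma adjusted p = 0.0030). All 4 fell under scaling to the hybridization controls as well, where the whole list gave 8 rises and 4 falls, against 42.8% and 7.22% of all genes. The list gave 5 falls without WT replicate 2, and 2 rises with that array left out or with the replicate number as a block.

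Of 12 measured genes listed under mitochondrial release and the apoptosome, among them Vdac1, Vdac2, Vdac3 and Opa1, 7 rose and 2 fell. That compares with 18.6% of all genes in each direction, and the median difference of the list was 0.43. It gave 5 rises and 1 fall without WT replicate 2 or with the replicate number as a block. Under scaling to the hybridization controls 10 of the 12 rose, against 42.8% of all genes. Htra2, a protease released from mitochondria that cleaves caspase inhibitors, rose 3.37-fold, 1.75 ± 0.11 (SE, n = 3 per group; limma adjusted p = 5.8e-05). It went from 8.72, 8.85 and 8.93 to 10.54, 10.75 and 10.47, on a probe set with shared probes, and its second probe set, of the same kind, rose by 1.75.

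Vdac1 and Vdac3, channels of the outer membrane, rose by 0.87 ± 0.09 and 0.72 ± 0.08 (SE, n = 3 per group; limma adjusted p = 4.9e-04 and 8.1e-04). Endog, a mitochondrial nuclease, fell by 0.79 ± 0.16 (limma adjusted p = 0.0084), while its other probe set differed by -0.37 (0.128), and under scaling to the hybridization controls the first was not called (-0.43, limma adjusted p = 0.078).

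**Figure D4:**
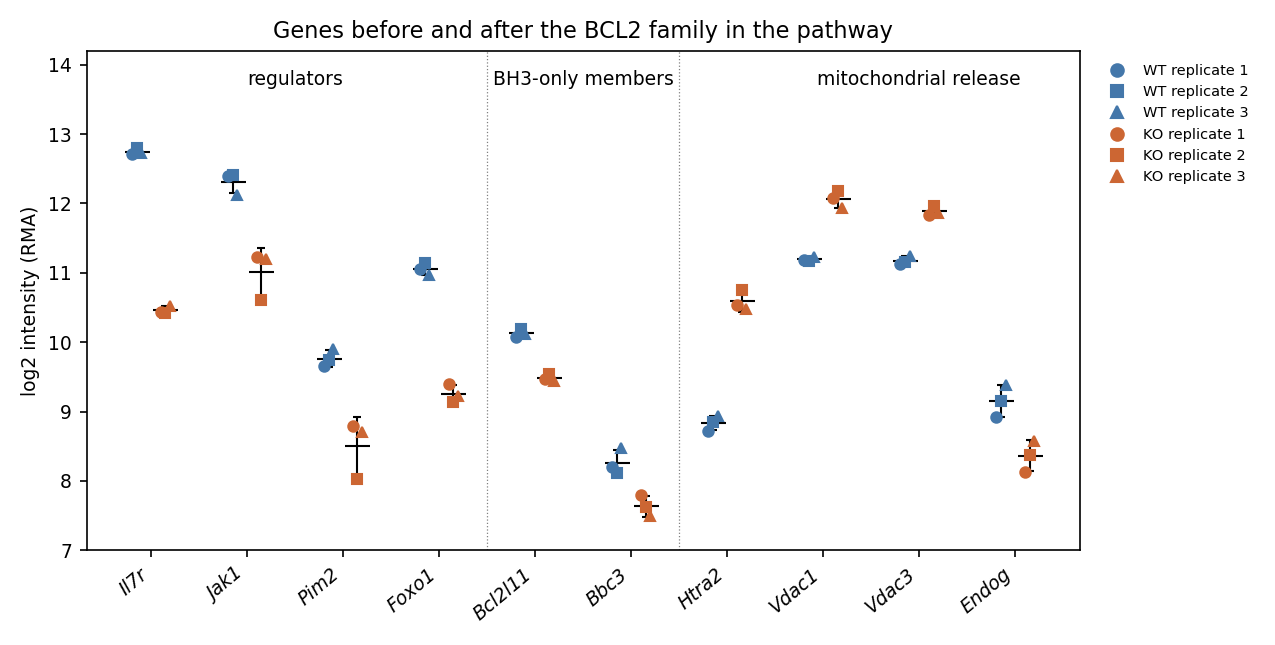
Log2 intensity (y axis, RMA) of 4 regulators, 2 BH3-only members and 4 genes of mitochondrial release, at the brightest probe set of each, for 3 WT and 3 KO mice, with group means (ticks) and SD (bars). Il7r, Jak1, Pim2, Foxo1, Bcl2l11, Bbc3 and Endog lie lower on all KO arrays and Htra2, Vdac1 and Vdac3 higher. Bcl2l11, Bbc3 and Endog lose their calls, with the sign kept, under scaling to the hybridization controls.

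Further genes of the family were 11 measured ones, of which 2 rose and 1 fell, against 18.6% of all genes in each direction. Bnip3 and Bcl2l12 rose, by 0.49 ± 0.13 and 0.46 ± 0.09 (SE, n = 3 per group; limma adjusted p = 0.024 and 0.0061), and Bik fell by 0.32 ± 0.09 (0.036). Bnip3, which takes part in the removal of mitochondria, did not pass when WT replicate 1, WT replicate 2 or KO replicate 1 was left out (limma adjusted p = 0.075, 0.071 and 0.069). Bik, a BH3-only gene, did not pass when WT replicate 1 or 2 was left out, or KO replicate 1 or 3 (0.085 to 0.119), and its difference turned to 0.043 under scaling to the hybridization controls. A dimmer Bcl2l12 probe set differed by -0.32 (limma adjusted p = 0.124). The Bcl2a1 genes and Bnip3l had no probe set assigned to a single one of them, and the BH3-only gene Bad differed by 0.030 at its brightest probe set (limma adjusted p = 0.832). Under scaling to the hybridization controls 8 of the 11 rose, against 42.8% of all genes.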

How the data were processed

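The authors deposited log2 intensities per probe set, made with RMA (version not given) per the submitters' processing notes. The labels describe cRNA amplified with oligo(dT) and random primers. Values were used as deposited, with no further transformation, filter or pseudocount, and they carry no detection calls or depth. The 6 arrays limit the precision. Differences of dim probe sets may be understated, which was not tested. The titles give the genotype, 3 KO and 3 WT, each array from its own animal. Of 45101 probe sets 64 were controls and 45037 were tested. The platform annotation gave 1 gene for 34945 and several for 932 and did not list 9160. The probe sets with 1 gene covered 18193 genes, and a gene's representative was its brightest probe set by the mean over 6 arrays. Of the 33 member probe sets 7 carry the suffix _x_at and 2 _s_at and can cross-hybridise.

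R 4.3.3 and limma 3.58.1 were used: lmFit and eBayes without trend, genotype as the only term, two-sided p adjusted by Benjamini-Hochberg over all 45037 probe sets, with calls below 0.05. The script was tested on simulated data. Probe sets of a gene were compared by exact permutation over the arrays in 24 pairs, where the smallest Benjamini-Hochberg adjusted p was 0.185. Promoter and miRNA sequences are from RefSeq (GRCm38.p6). Same-numbered arrays did not deviate together (correlations of 0.10, -0.24 and -0.20), so numbers were not taken as pairs. The largest correlations were 0.27 for WT replicate 2 with KO replicate 3 and 0.25 for WT replicate 3 with KO replicate 2. Whether a litter or batch links such arrays was not tested, and the model holds no such term. All 10 genes were named in the text, with up to 4 called genes with the largest differences from each further list and defining markers of cell types. Members and lists were chosen with earlier results of these data known. Lists covered regulators, mitochondrial release, further family genes and markers of T, B, NK, dendritic and erythroid cells, neutrophils, eosinophils with basophils and mast cells, monocytes with macrophages, and megakaryocytes. Every sample column of the deposited table was used.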

Additional observations from a re-analysis of the deposited data

How the results depend on the processing

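Alternatives were the replicate number as a block, weighting of arrays, a robust fit with a mean-variance trend, another quantile normalization, centring on medians, scaling to the 18 hybridization controls, leaving out probe sets below the median level, a threshold of 0.10 or of 1.5-fold, each left-out array, each gene's other probe sets and their mean. Of the 20 called member probe sets, 7 kept their call in all of the 15 settings across probe sets that kept them in the test, and 13 lost it in at least 1. Scaling to the hybridization controls changed most: 10 member probe sets rose and 4 fell, and of all probe sets 17309 rose and 2337 fell, against 6242 and 6986 as deposited. With a minimum of 1.5-fold 3856 of all probe sets fell. With the replicate number as a block, 5 member probe sets rose and 14 fell. WT replicate 1 deviated most like KO replicate 1, but WT replicates 2 and 3 did not deviate most like their own numbers. Leaving out each array gave 5 to 6 member probe sets that rose and 10 to 15 that fell. The near-zero difference of Bcl2l1 at 1420888_at turned positive with median centring (0.018), under scaling to the hybridization controls (0.36), without KO replicate 1 (0.014) or KO replicate 3 (0.049), and at 1420887_a_at (0.041), and with arrays left out it ranged from -0.069 to 0.049. For Bmf at 1454880_s_at the sign turned with array weights (-0.046), without KO replicate 2 (-0.17), and at 1458325_x_at (-0.019) and 1422995_at (-0.15), and with arrays left out it ranged from -0.17 to 0.46. For Bcl2l2 it turned at 1430453_a_at (-0.078) and 1430454_x_at (-0.47), and for Bcl2l11 at 1426334_a_at (0.29). Averaged over its 5 probe sets Bcl2 differed by -1.01 and was not called (limma adjusted p = 0.074). The cause of these changes was not tested.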

Other observations

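For some further pathway genes the other probe sets were compared with the brightest one, and not all of them matched it. A second probe set of Bad, a BH3-only gene inactivated by growth factor signals, rose by 0.69 ± 0.18 (SE, n = 3 per group; limma adjusted p = 0.023), from 7.82, 8.15 and 8.41 in WT to 8.67, 9.09 and 8.70 in KO. For Cycs, which encodes cytochrome c, 3 of 4 probe sets rose, by 0.42, 0.66 and 0.60, and the dim 1445484_at differed by 0.014. Both probe sets of Apaf1, the scaffold of the apoptosome, rose, by 0.62 and 0.63. Xiap, a caspase inhibitor, fell by 0.32 at its brightest probe set (limma adjusted p = 0.025). It turned to 0.049 under scaling to the hybridization controls (limma adjusted p = 0.744), and none of its 6 other probe sets was called in limma, with 1 at an unadjusted p below 0.05. These genes were chosen after their values were seen.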
